A study of Rattus norvegicus with 20 samples.

Results

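Levels of 9 liver enzymes of amino acid breakdown were compared over 4 diets in rats: Agxt, Aass, Tat, Tdo2, Hpd, Sds, Hal, Fah and Oat. They were taken by gene symbol from the platform annotation, which gave 9 probe sets of 31099 on the array, 1 for each gene, and all 9 stand among the 11576 genes tested. Livers came from male Sprague-Dawley rats that were 4 weeks old on arrival, had 7 d of acclimatisation on a non-purified diet and then ate an experimental diet for 15 d. The experimental diets held 0.2% sesamin, 0.2% episesamin, 0.2% sesamolin or no lignan (the lignan-free diet), with 7 rats per diet. RNA of 5 rats per diet was hybridised, 1 Affymetrix array per rat, after the heaviest and the lightest rat of each diet had been set aside. Sesamin and episesamin are sesame lignans that are epimers of each other, and sesamolin carries an additional oxygen between one of its aromatic groups and its ring system.

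The liver is the main site at which amino acids eaten beyond the body's need are taken apart. Nitrogen is passed on by transaminases and deaminases toward urea, and the carbon skeletons are oxidised or turned into glucose. Several of these enzymes, Tat, Tdo2 and Sds above all, are textbook examples of liver genes that respond to glucocorticoids, glucagon and feeding.

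By role, Agxt moves the amino group of alanine to glyoxylate, and Aass carries out the first steps of lysine breakdown. Hal (histidine ammonia-lyase) deaminates histidine, Oat (ornithine aminotransferase) converts ornithine, and Sds (serine dehydratase) turns serine into pyruvate. Tat (tyrosine aminotransferase), Hpd (4-hydroxyphenylpyruvate dioxygenase) and Fah (fumarylacetoacetate hydrolase) act along the tyrosine pathway, and Tdo2 (tryptophan 2,3-dioxygenase) opens the ring of tryptophan.

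Agxt and Aass were the 2 members that passed the test against the lignan-free diet, so the promoters of these 2 genes are shown. The windows are RefSeq sequence of the rat build GRCr8, from 250 bases before to 50 bases after an annotated start, and 7 of the 9 members had an entry. Agxt had 2 entries, called upstream and downstream here by their position. Its windows lie at chr9:101122543-101122842 and chr9:101127008-101127307, both on the plus strand, and the Aass window lies at chr4:52628762-52629061 on the minus strand. Capitals mark matches on either strand to AGGTCA, the core of nuclear receptor sites, to AGAACA, the core of glucocorticoid receptor sites, or to TATAAA, the TATA box, and the matches do not overlap each other.
Agxt upstream start: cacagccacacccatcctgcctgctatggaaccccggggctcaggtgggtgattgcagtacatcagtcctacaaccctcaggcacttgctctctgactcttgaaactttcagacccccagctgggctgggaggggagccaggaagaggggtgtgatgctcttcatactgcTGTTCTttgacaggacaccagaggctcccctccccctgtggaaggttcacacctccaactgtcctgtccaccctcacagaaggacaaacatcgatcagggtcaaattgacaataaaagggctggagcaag
Agxt downstream start: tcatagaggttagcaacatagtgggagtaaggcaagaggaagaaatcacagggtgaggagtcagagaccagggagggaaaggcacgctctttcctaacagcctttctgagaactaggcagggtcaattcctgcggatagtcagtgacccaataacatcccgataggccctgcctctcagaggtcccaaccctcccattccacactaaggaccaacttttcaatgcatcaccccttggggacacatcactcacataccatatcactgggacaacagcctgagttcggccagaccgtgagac
Aass: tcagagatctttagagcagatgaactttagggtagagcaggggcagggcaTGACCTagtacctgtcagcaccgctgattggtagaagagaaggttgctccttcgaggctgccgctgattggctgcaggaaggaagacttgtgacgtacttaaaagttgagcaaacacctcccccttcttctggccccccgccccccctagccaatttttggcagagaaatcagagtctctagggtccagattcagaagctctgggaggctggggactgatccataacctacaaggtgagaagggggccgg
The upstream Agxt window held TGTTCT, the reverse complement of AGAACA, 80 bases before the start, and the downstream Agxt window held none of the 3 motifs. Aass held TGACCT, the reverse complement of AGGTCA, 200 bases before its start. Over all 33469 promoters of the same length, 16.2% held AGGTCA, 20.7% held AGAACA and 14.2% held TATAAA. Among the 7 members with an entry, AGGTCA was also found in Hpd and TATAAA in Tdo2. A match of this kind is a run of letters and not a measured site, and the Agxt probe set does not say from which annotated start a transcript came.

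Mean raw intensity was 236 ± 27.6 on sesamin, 213 ± 36.1 on episesamin, 221 ± 45.3 on sesamolin and 247 ± 29.2 on lignan-free arrays (SD, n = 5 each). Two-sided exact permutation p against lignan-free was 0.540, 0.151 and 0.262 in that order of lignans. A mean below 200 was found on 6 arrays, called dim here, namely sesamin 2, episesamin 3 and 4, sesamolin 2 and 5, and lignan-free 3. Arrays of 1 diet correlated at 0.959 to 0.980, and the actin 3' to 5' ratio gave exact p of 0.476, 0.405 and 0.230. Levels below are quantile normalized intensities, listed from replicate 1 to replicate 5, and are compared only within a probe set. All 9 members lay above the filter level of 17.8 on all 20 arrays.

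Agxt was higher with episesamin and with sesamolin than with the lignan-free diet. Its level was 1157, 1548, 1648, 1807 and 1389.8 with sesamin and 1437, 1695, 1621, 1361 and 1522 with episesamin. It was 1366, 1509, 1629, 1512 and 1754 with sesamolin, against 1073, 1076, 1172, 983 and 1013 with the lignan-free diet. Every episesamin and sesamolin rat lay above every lignan-free rat, as did 4 of the 5 sesamin rats, while sesamin replicate 1 fell inside the lignan-free range. On the log2 scale the difference from lignan-free was 0.49 ± 0.11 with sesamin, 0.52 ± 0.11 with episesamin and 0.54 ± 0.11 with sesamolin (± SE), or 1.40-fold, 1.43-fold and 1.46-fold. Adjusted p in limma was 0.0567 with sesamin, which missed the threshold of 0.05, 0.00831 with episesamin and 0.00513 with sesamolin. The unadjusted p with sesamin was 0.00025 in limma, at rank 51 of 11576 genes, in a comparison where 50 genes were called. The adjustment depends on all genes of a comparison, so the miss does not by itself mean a smaller difference with sesamin.

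The order of the Agxt means was sesamolin, episesamin, sesamin and lignan-free, with 1554 ± 146, 1527 ± 135, 1510.0 ± 249 and 1064 ± 72.6 (SD, n = 5 each). Neighbouring lignans in that order did not pass a test, since sesamolin minus episesamin was 0.02 with a 95% interval of -0.20 to 0.25 and episesamin minus sesamin was 0.03 with an interval of -0.20 to 0.26. The sesamin difference passed without sesamin replicate 1 (adjusted p 0.00597), and the sesamolin call was lost without the 6 dim arrays (0.0569). With arrays left unnormalized neither call held, with adjusted p 0.384 for episesamin and 0.322 for sesamolin, and under median scaling the episesamin value was 0.0501. RNA of whole liver was measured, so fewer cells of a type and less RNA per cell cannot be told apart in this or any later result.

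Aass was lower with episesamin and with sesamolin than with the lignan-free diet. Its level was 2189.6, 2047, 2166, 2900.4 and 2500.2 with sesamin and 1871, 1696, 1224, 1401 and 1657 with episesamin. It was 1810.4, 1821, 1592, 1529.8 and 1908 with sesamolin, against 2205, 2350.3, 2102, 2463 and 2537 with the lignan-free diet. All episesamin and all sesamolin rats lay below all lignan-free rats and below all sesamin rats, and the sesamin and lignan-free rats were intermixed. Against lignan-free, the log2 difference was 0.01 ± 0.12 with sesamin, -0.58 ± 0.12 with episesamin and -0.43 ± 0.12 with sesamolin, and the level was 0.668 and 0.743 of the lignan-free level in the last 2 diets. Adjusted p in limma was 0.992, 0.0067 and 0.0372 for sesamin, episesamin and sesamolin.

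The epimers differed in Aass. Episesamin was 0.59 below sesamin on the log2 scale (difference -0.59 ± 0.12, 95% interval -0.84 to -0.34, adjusted p 0.0150 in limma), which is 0.664 of the sesamin level. Sesamolin minus sesamin was -0.44 with an interval of -0.69 to -0.19, and its adjusted p of 0.0673 missed the threshold although the groups did not overlap. It passed without episesamin replicate 3 (0.0427). Sesamolin minus episesamin was 0.15 with an interval of -0.10 to 0.40.

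The lower Aass with sesamolin was lost on leaving out any of lignan-free replicates 1, 2, 4 and 5 or sesamolin replicates 1, 3 and 4, with adjusted p up to 0.0878. Aass correlated with the mean raw intensity of an array at 0.49 over the 20 arrays and 0.37 within diets. With another measure of brightness as a covariate, the mean log2 raw intensity of an array, the sesamolin difference was -0.39 (adjusted p 0.0787). The mean raw intensity itself was not used as a covariate. Without the 6 dim arrays the episesamin difference was -0.45 (0.0638), the episesamin minus sesamin difference was -0.48 (0.105) and sesamolin minus sesamin passed (0.0450). Under median scaling the call was lost for sesamolin against lignan-free (0.0966) and for episesamin against sesamin (0.119), and the call between the epimers was also lost in a fit of these 2 diets alone (0.125). With no filter the sesamolin call was lost (0.0525), and with arrays left unnormalized no Aass call held, with adjusted p 0.0649 for episesamin and 0.147 for sesamolin against lignan-free and 0.286 for episesamin against sesamin.

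Hal separated sesamolin from sesamin. Its level was 1071, 1122, 1099, 1194 and 1419 with sesamin and 642, 833, 1013, 923 and 1199 with episesamin. It was 774, 740.3, 515, 711 and 854 with sesamolin, against 1036, 860.4, 694, 1089 and 1085 with the lignan-free diet. The sesamolin rats all lay below the sesamin rats, and each of these groups overlapped the lignan-free rats. Sesamolin minus sesamin was -0.72 ± 0.17 on the log2 scale, or 0.606 of the sesamin level, with adjusted p 0.0300 in limma.

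Against the lignan-free diet the Hal difference was 0.32 with sesamin, -0.06 with episesamin and -0.40 with sesamolin, with adjusted p 0.700, 0.891 and 0.175. The difference between sesamolin and sesamin was lost on leaving out any of sesamolin replicates 3 and 4 or sesamin replicates 3, 4 and 5 (adjusted p up to 0.0846), under median scaling (0.0887), with arrays left unnormalized (0.165), without the 6 dim arrays (0.0717) and in a fit of these 2 diets alone (0.0621).

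Oat had 2594, 1511, 3464, 2954 and 2477 with sesamin and 2671, 2569, 1421, 1693 and 2089 with episesamin. With sesamolin it had 1292, 1369.7, 2122, 2066 and 1599.6, against 2995, 2588, 3625, 2556 and 2108 with the lignan-free diet. Of the 5 sesamolin rats, 4 lay below all lignan-free rats, and replicate 3 fell just inside their range. The log2 difference from lignan-free was -0.12 with sesamin, -0.43 with episesamin and -0.72 ± 0.22 with sesamolin (95% interval -1.19 to -0.25). None passed the threshold in limma, with adjusted p 0.954, 0.301 and 0.0628. The sesamolin value was below the threshold in 3 of 36 alternatives. These were without sesamin replicate 2 (0.0348), with the stricter filter on low values (0.0418) and with the actin ratio as a covariate (0.0476). In the others its adjusted p in limma ran up to 0.222, and over all 36 the log2 difference ran from -0.89 to -0.51. Oat correlated with mean raw intensity at 0.51 over the 20 arrays and 0.43 within diets.

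Sds, which feeds serine carbon into glucose synthesis, had the widest spread of the 9 members between rats of a diet. It had 54.9, 72.4, 213, 1224 and 244 with sesamin and 31.8, 121, 177, 32.5 and 38.5 with episesamin. With sesamolin it had 45.6, 128, 242, 56.6 and 223, against 196, 222, 184, 208 and 113 with the lignan-free diet. Of the episesamin rats, 3 lay below every lignan-free rat, and 1 sesamin rat stood far above all others. The log2 difference from lignan-free was 0.11 with sesamin, -1.45 ± 0.68 with episesamin and -0.64 with sesamolin, with adjusted p 0.988, 0.246 and 0.641. Without sesamin replicate 4 the sesamin difference was -0.55. The Sds probe set carries the suffix for several transcripts of one gene.

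Tat, the textbook glucocorticoid target, had 2274, 1138, 1672, 1253 and 847 with sesamin and 2873, 918, 742, 785 and 1569 with episesamin. With sesamolin it had 1241, 1812, 1491, 1138 and 2300.3, against 3315, 2015, 1731, 826 and 1033 with the lignan-free diet. The 4 groups overlapped broadly, and replicate 1 was the highest rat in 3 of them. The log2 difference from lignan-free was -0.22 with sesamin (95% interval -1.05 to 0.61), -0.40 with episesamin (-1.23 to 0.42) and -0.03 with sesamolin (-0.86 to 0.79). None passed in limma, with adjusted p 0.954, 0.612 and 0.975.

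Tdo2 had 7141, 7529, 9805, 10128 and 8698 with sesamin and 7568, 7529, 7269.6, 6941 and 6704 with episesamin. With sesamolin it had 7394, 6290.2, 7156, 6907 and 6964, against 7141, 6541, 8543, 8383 and 6582 with the lignan-free diet. Of the sesamin rats, 3 exceeded every rat of the other diets, and the other groups were intermixed. The log2 difference was 0.22 with sesamin, -0.04 with episesamin and -0.09 with sesamolin against lignan-free. Sesamolin minus sesamin was -0.31 and episesamin minus sesamin -0.25, and neither passed in limma (adjusted p 0.159 and 0.310).

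**Figure D1:**
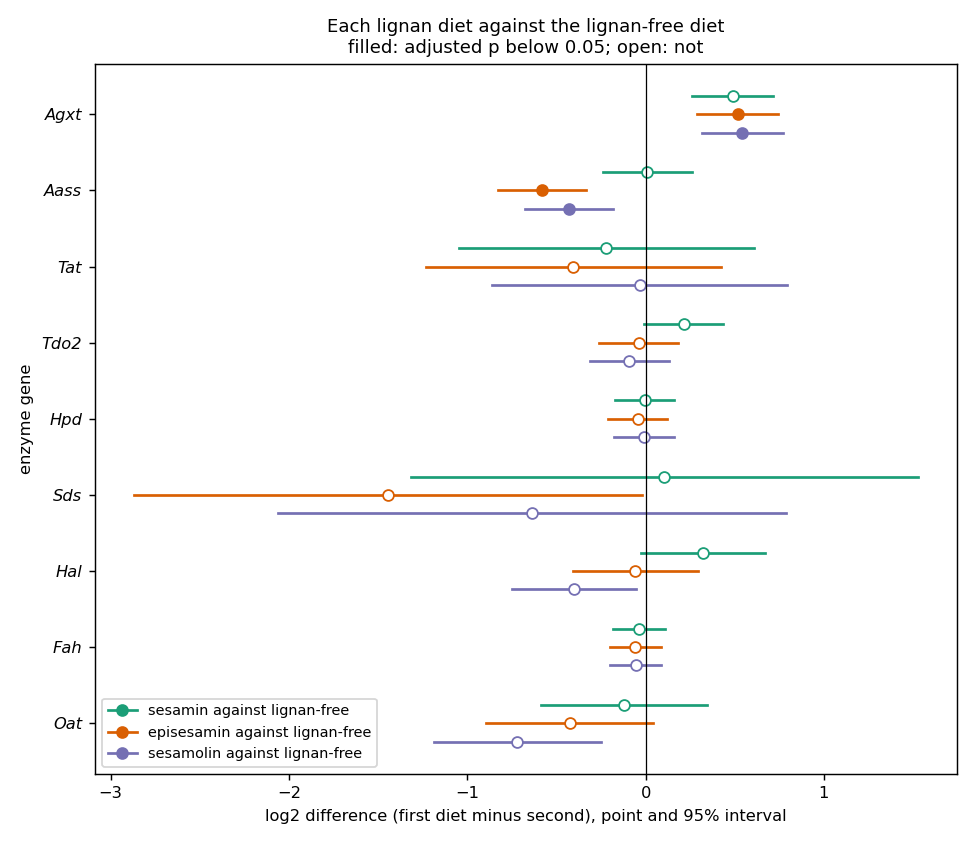
Log2 difference of each lignan diet from the lignan-free diet (horizontal axis) for the 9 enzymes, as the limma estimate with its 95% interval. Filled points have an adjusted p below 0.05 and are Agxt and Aass with episesamin and sesamolin, and the intervals of Sds and Tat are the widest.

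The 2 later enzymes of the tyrosine pathway varied little over the arrays. Hpd had 8698, 7908, 8751, 7597 and 9126 with sesamin and 7627, 8478, 8291, 7713 and 8803 with episesamin. It had 7806, 7877, 9671, 8383 and 8250.4 with sesamolin, against 8065, 8440.3, 7947, 9048 and 8661 with the lignan-free diet. Highest over lowest of the 20 arrays was 1.27.

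Fah, the last enzyme of the pathway, had 4609.6, 5268, 5069, 4854 and 5396 with sesamin and 4897, 4757, 4931, 5099 and 5129.9 with episesamin. It had 4739, 5173, 4826, 5323 and 4786 with sesamolin, against 5343, 4975, 4836, 5533 and 5152 with the lignan-free diet. Highest over lowest was 1.20, and the groups overlapped for both genes. The 12 intervals of Hpd and Fah, over 6 comparisons each, lay between -0.21 and 0.20 on the log2 scale, or 0.864-fold to 1.15-fold, each as a single 95% interval with quantile normalization. With arrays left unnormalized the Fah difference between episesamin and lignan-free was -0.25 (adjusted p 0.366).

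Spread between rats of a diet set these genes apart. The pooled SD on the log2 scale was 1.15 for Sds and 0.67 for Tat, at the 99.8th and 94.2nd percentile of all genes tested, and 0.37 for Oat, at the 71.4th. Hal, with 0.27, was close to the median gene at 0.26. Aass had 0.18, Agxt 0.16 and Tdo2 0.16, at the 25.1st, 18.6th and 17.1st percentile. Hpd with 0.10 and Fah with 0.074 were among the least variable genes, at the 3.89th and 0.89th percentile. These percentiles are over all genes tested, bright and dim, and no comparison with genes of like brightness was made.

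**Figure D2:**
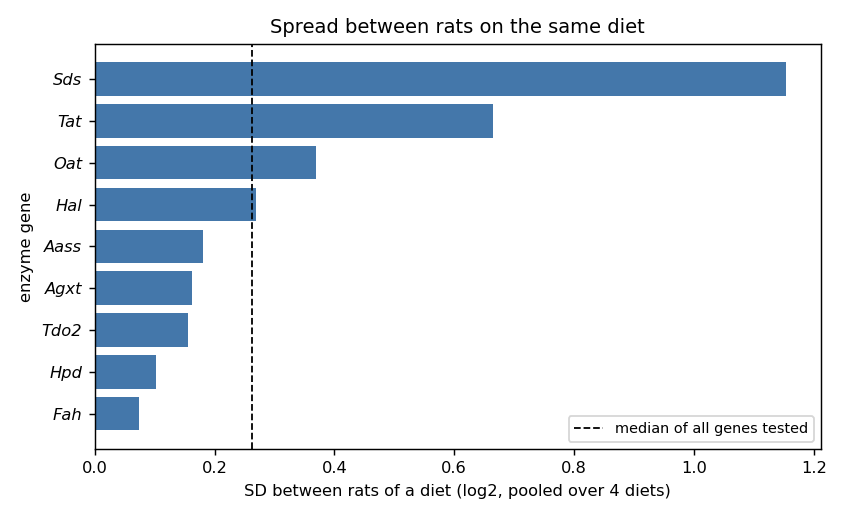
Pooled SD between rats of the same diet (horizontal axis, log2, from 0) for each enzyme, with a dashed line at the median of all genes tested, 0.26. Sds (1.15) and Tat (0.67) lie far to the right of the line, and Hpd (0.10) and Fah (0.074) far to its left.

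Counted over the 9 members, sesamin against lignan-free gave 0 higher and 0 lower, where 0.432% of all genes tested were called, 0.397% higher and 0.0346% lower. In that comparison Agxt was the 1 member with an unadjusted p below 0.05, against 7.45% of all genes, and no member had groups that did not overlap, against 1.91%. Episesamin against lignan-free gave 1 higher and 1 lower, where 5.12% of all genes were called, 2.91% higher and 2.21% lower. Sesamolin against lignan-free also gave 1 higher and 1 lower, where 6.24% were called, 3.28% higher and 2.95% lower. Unadjusted p below 0.05 was found for 3 members with episesamin and 4 with sesamolin, where the shares of all genes were 19.7% and 20.3%. These 3 comparisons share the lignan-free arrays and are not independent. Member medians were 0.01 with sesamin, -0.06 with episesamin and -0.09 with sesamolin on the log2 scale, where the median of all genes was -0.0095, -0.018 and -0.0095.

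Between lignans, episesamin against sesamin gave 0 higher and 1 lower (Aass), where 1.23% of all genes were called, 0.821% higher and 0.406% lower. Sesamolin against sesamin gave 0 higher and 1 lower (Hal), where 1.81% were called, 1% higher and 0.812% lower. Unadjusted p below 0.05 was found for 4 members in each, where the shares of all genes were 12.9% and 14.5%. Member medians were -0.25 and -0.31, where the medians of all genes were 0.0003 and 0.0021. For sesamolin against episesamin limma called 0 of 9 members and 0 of 11576 genes, which is 0%, and an unadjusted p below 0.05 was found for 0 members and 663 genes (5.73%). An F test over the 4 diets called Agxt and Aass (adjusted p 0.00925 and 0.00579), 2 of 9 against 4.89% of all genes.

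Groups did not overlap for 2 members with episesamin, against 6.85% of all genes, and for 2 with sesamolin, against 6.93%, each compared with lignan-free. They did not overlap for 1 member in episesamin against sesamin (3.64%), for 2 in sesamolin against sesamin (4.29%) and for 0 in sesamolin against episesamin (0.803%).

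**Figure D3:**
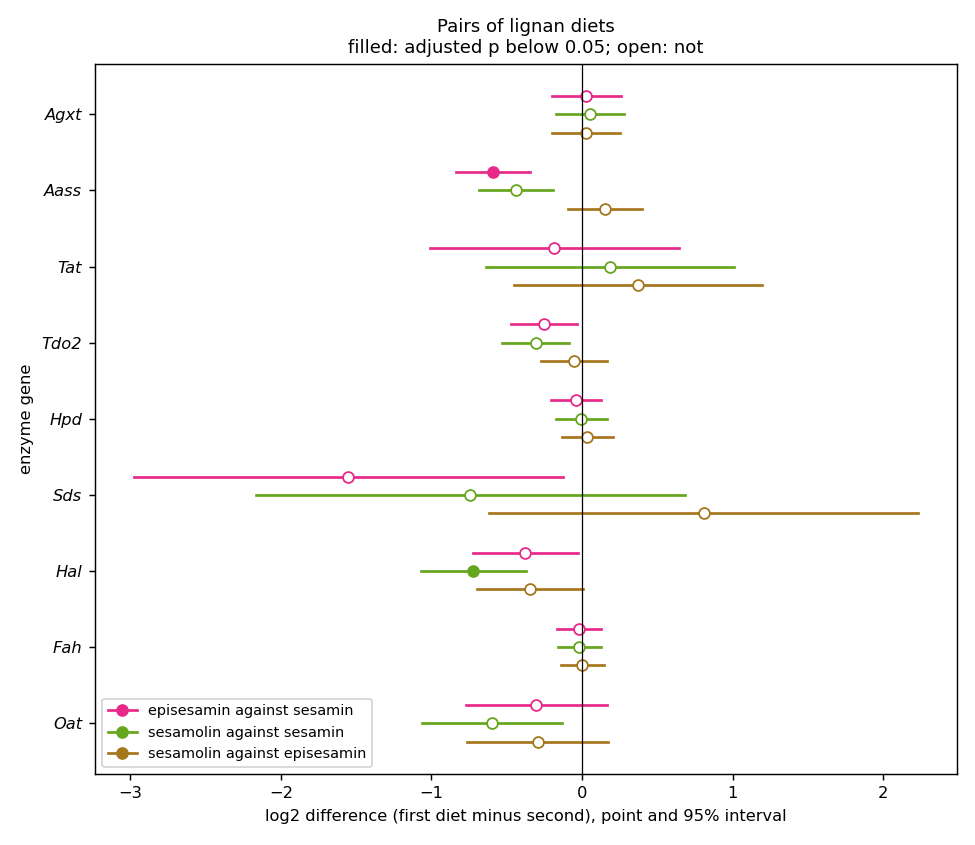
Log2 difference between pairs of lignan diets (horizontal axis) for the 9 enzymes, as the limma estimate with its 95% interval. Filled points have an adjusted p below 0.05 and are Aass for episesamin minus sesamin (-0.59) and Hal for sesamolin minus sesamin (-0.72).

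The members did not share 1 pattern over the arrays. Over 36 pairs of members the median Pearson r was 0.13 across the 20 arrays and 0.064 within diets, and 24 and 20 of the pairs were above 0. Aass and Agxt had r = -0.40 over 20 arrays and 0.093 within diets. Agxt and Sds had 0.14 over 20 arrays and 0.76 within diets, while Tdo2 had 0.57 with Oat and 0.55 with Sds over 20 arrays. The points share arrays and diets, and these values are descriptions.

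Genes with the pattern most like a member's were taken as the 2 highest Pearson r over the 20 arrays. For Agxt these were Clu (0.87), which encodes a secreted chaperone, and Hadha (0.84), of mitochondrial fatty acid oxidation. For Aass they were Acbd5 (0.86), which encodes a peroxisomal acyl-CoA binding protein, and Dld (0.85), a subunit shared by the mitochondrial 2-oxo acid dehydrogenases. Sds was closest to Got1 (0.85), the cytosolic aspartate aminotransferase, and to Kifbp (0.84), and Hal to Stac3 (0.84) and R3hdm2 (0.83). Oat was closest to Ppp4r3b (0.82) and Wsb1 (0.81), and Tdo2 to Cdo1 (0.80), the cysteine dioxygenase, and Rictor (0.77). Tat was closest to Noct and Prps1 at 0.74 each, Hpd to Heatr3 (0.77) and Zbtb38 (0.74), and Fah to Lrp3 (0.76) and Porcn (0.75). Each gene was picked as the highest among the 11576 genes tested, which by itself gives high values over 20 arrays. No p was computed, and no link between the genes is drawn from these values.

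Around the members, 83 other genes of amino acid breakdown were listed and 73 were tested. Sesamin gave 0 higher and 0 lower of these against lignan-free, episesamin 2 higher and 6 lower (11% of them, where 5.12% of all genes were called), and sesamolin 3 higher and 4 lower (9.59%, where 6.24% of all genes were called). List medians were 0.01, -0.09 and -0.13 on the log2 scale, where the medians of all genes were -0.0095, -0.018 and -0.0095. The list was chosen with earlier results of these data known, so these shares and medians are descriptions and not an independent comparison.

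Along the lysine pathway entered through Aass, the later enzymes moved both ways. Gcdh, the glutaryl-CoA dehydrogenase, averaged 2317 ± 285 with sesamin, 2905 ± 311 with episesamin and 2970.4 ± 537 with sesamolin, against 1834 ± 253 lignan-free (SD, n = 5 each). Its log2 difference was 0.67 with episesamin and 0.68 with sesamolin (adjusted p 0.00516 and 0.00365). Dhtkd1, of the 2-oxoadipate dehydrogenase, fell by 0.30 with episesamin and by 0.34 with sesamolin on the log2 scale (adjusted p 0.0485 and 0.0233). The Dhtkd1 call with episesamin was lost on leaving out 1 array in 15 of 20 cases (adjusted p up to 0.106), and held without sesamin 1, episesamin 3 or sesamolin 1, 2 or 5. With sesamolin it was lost without lignan-free 4 or sesamolin 1, 3 or 4 (up to 0.0623). Dhtkd1 was also lower with sesamolin than with sesamin (log2 difference -0.34, adjusted p 0.0487). Aldh7a1, the gene of the list with the brightest probe set among those that did not pass, differed from lignan-free by 0.10, 0.05 and -0.08 with sesamin, episesamin and sesamolin.

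In the glycine and glyoxylate group to which Agxt belongs, Dmgdh and Gcat were lower. Dmgdh, the dimethylglycine dehydrogenase, averaged 599 ± 88.8 with sesamin, 367 ± 50.5 with episesamin and 355 ± 49.8 with sesamolin, against 664 ± 117 lignan-free. It fell by 0.84 with episesamin and by 0.89 with sesamolin on the log2 scale (adjusted p 0.000823 and 0.000449), and episesamin minus sesamin was -0.70 (0.0128) and sesamolin minus sesamin -0.75 (0.00758). Gcat, which cleaves a threonine product to glycine, fell by 0.95 with episesamin (adjusted p 0.00461). Hao1, the glycolate oxidase that makes the glyoxylate used by Agxt, averaged 5062 ± 425, 4994 ± 244 and 4872 ± 364 with sesamin, episesamin and sesamolin, against 5132 ± 280.1 lignan-free, and passed in none of these.

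Of the valine enzymes, Hibch (3-hydroxyisobutyryl-CoA hydrolase) rose by 0.71 with episesamin and by 0.82 with sesamolin on the log2 scale (adjusted p 0.00435 and 0.000980), while Acad8 (isobutyryl-CoA dehydrogenase) fell by 0.51 with sesamolin (0.029). For Acad8, sesamolin minus sesamin was -0.72 (adjusted p 0.0083), and sesamin minus lignan-free was 0.21 without passing (0.804). In the tryptophan pathway after Tdo2, Acmsd, which leads tryptophan carbon away from NAD synthesis, fell by 0.95 with episesamin (0.0400) and Kynu (kynureninase) rose by 0.35 with sesamolin (0.0472). Bhmt, the betaine-homocysteine methyltransferase, fell by 0.65 with episesamin (0.0252). Gstz1, Aadat, Aldh7a1, Uroc1, Hao1, Aldh4a1, Hibadh, Cdo1 and Got2, 1 in each pathway, did not pass, and were named for the brightness of their probe sets, which does not order the genes' levels.

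Leaving out 1 array ended several of these calls against lignan-free. Kynu was lost in 14 of 20 cases (adjusted p up to 0.113) and held without sesamin 3 or 4, episesamin 3 or 5, sesamolin 4 or lignan-free 3. Acmsd was lost without episesamin 2, 4 or 5 or lignan-free 1, 2, 4 or 5 (up to 0.105), and Acad8 without sesamolin 1 or 2 or lignan-free 1 or 3 (up to 0.0745). Bhmt was lost without episesamin 3 or lignan-free 4 or 5 (up to 0.0700). Without the 6 dim arrays the calls of Kynu (0.155), Acmsd (0.0560), Acad8 (0.171), Bhmt (0.120) and Dhtkd1 with episesamin (0.0771) were lost. In fits of the 2 diets alone those of Kynu (0.0934), Acmsd (0.0759), Acad8 (0.0972), Bhmt (0.0880) and Dhtkd1 (0.0849 with episesamin and 0.0927 with sesamolin) were lost. With arrays left unnormalized the calls of Gcdh (0.159 with episesamin and 0.125 with sesamolin) and Hibch (0.266 and 0.162) were lost. So were those of Dhtkd1 (0.105 with episesamin and 0.119 with sesamolin), Bhmt (0.0665) and Kynu (0.533). Under median scaling the calls of Hibch with episesamin (0.0588) and of Kynu (0.127) were lost.

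Among the called genes, 2 were dim. Asrgl1, an asparaginase, averaged 301 ± 87.5 with sesamin, 100.4 ± 61.3 with episesamin and 16.3 ± 2.3 with sesamolin, against 179 ± 91.9 lignan-free. Only 1 of 5 sesamolin arrays exceeded the filter level, so the level was at least 6.85-fold lower than lignan-free (adjusted p 0.000148) and at least 12.3-fold lower than with sesamin (6.07e-05). Episesamin minus sesamin was -1.74 for Asrgl1 on the log2 scale (adjusted p 0.0379). Gadl1, a decarboxylase, averaged 12.7 ± 12.0 with episesamin, with 1 of 5 arrays above the filter level, against 48.9 ± 19.2 lignan-free, and was at least 1.96-fold lower (0.0249). The Gadl1 call was lost without episesamin 3 or 4 or lignan-free 4 or 5 (adjusted p up to 0.0689), in a fit of the 2 diets alone (0.0735) and without the 6 dim arrays, where the log2 difference was -1.08 in place of -1.70 (0.301).

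**Figure D4:**
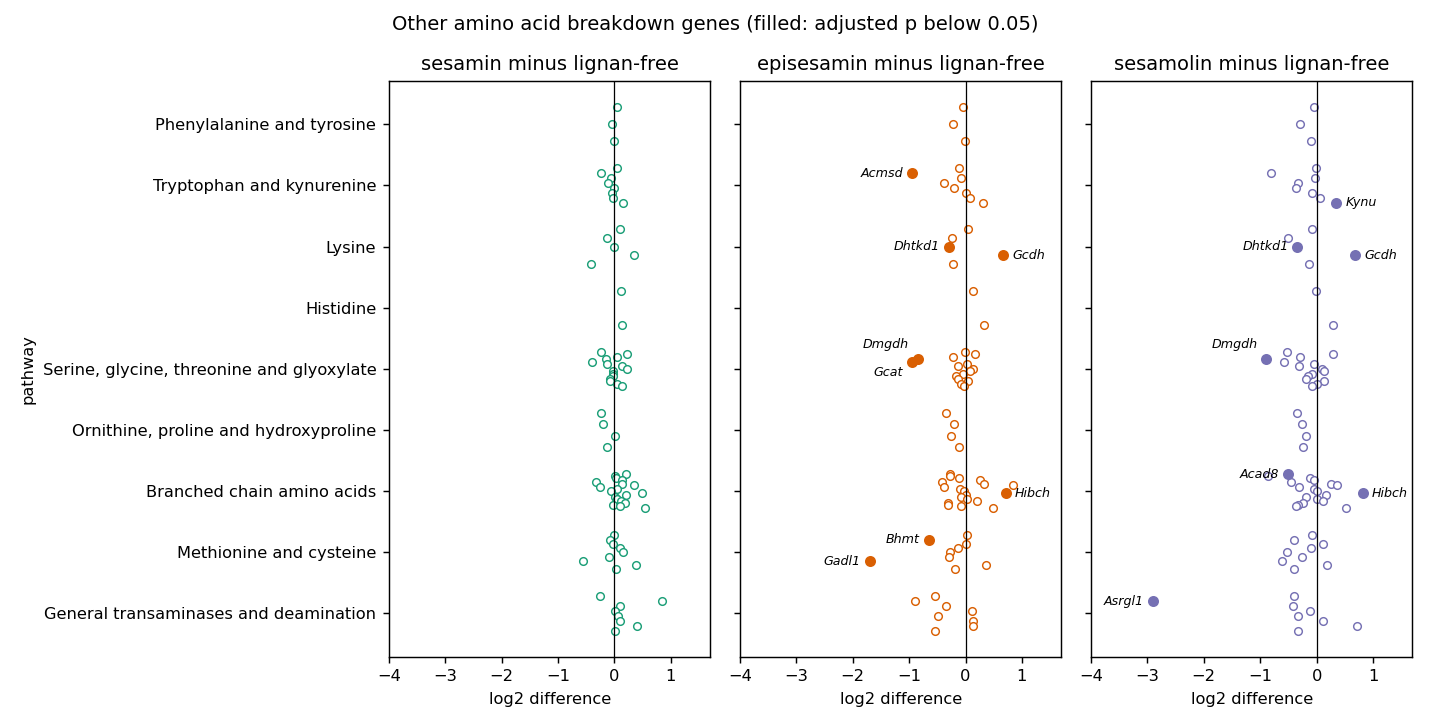
Log2 difference from the lignan-free diet (horizontal axes) of 73 other amino acid breakdown genes by pathway (rows), 1 panel for each lignan. Filled, named points have an adjusted p below 0.05, of which there are 0 with sesamin, 8 with episesamin and 7 with sesamolin, with Asrgl1 farthest from 0.

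Of 20 genes listed for glucocorticoid and fasting control, 18 were tested, and 1 was called with each of episesamin and sesamolin (5.56%, where 5.12% and 6.24% of all genes were called). This share is near that of all genes. The called gene, Nr3c1, the glucocorticoid receptor, averaged 514 ± 78.9 with sesamin, 362 ± 53.4 with episesamin and 399.9 ± 45.5 with sesamolin, against 578 ± 84.0 lignan-free. It fell by 0.66 with episesamin and by 0.52 with sesamolin on the log2 scale (adjusted p 0.00506 and 0.0232), and the sesamolin call was lost without sesamolin 3 or 4 or lignan-free 1 or 5 (up to 0.0655). It was also lost under median scaling (0.0527), with arrays left unnormalized (0.0813), with the mean of the gene's probe sets (-0.39, 0.0868), in a fit of the 2 diets alone (0.0510) and without the 6 dim arrays (0.0762), where the episesamin call of Nr3c1 was lost too (0.0841). Pck1, the rate-setting enzyme of glucose synthesis, averaged 6231 ± 842, 4416 ± 1155 and 5147 ± 1664 with sesamin, episesamin and sesamolin, against 5238 ± 1145 lignan-free, and did not pass. List medians were -0.03 with sesamin, -0.20 with episesamin and -0.07 with sesamolin, where those of all genes were -0.0095, -0.018 and -0.0095.

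Markers of hepatocytes, which hold these enzymes, had overlapping sums in all diets. The summed level of 9 tested genes of 10 listed ran over 89146 to 92237 with sesamin, 84267 to 91625 with episesamin and 87261 to 91920 with sesamolin, against 88864 to 95254 lignan-free, and 1 of the 9 (Apob) was lower with sesamolin. Markers of Kupffer cells, the macrophages of the liver, summed over 8 tested genes of 10 to 3588 to 5498, 3661 to 4546 and 2582 to 4153 with sesamin, episesamin and sesamolin, against 4877 to 5780. Of these 8, 2 were lower with episesamin (25%) and 6 with sesamolin (75%). For every marker list here, the share of all genes called was 0.432% with sesamin, 5.12% with episesamin and 6.24% with sesamolin. Endothelial markers, 6 tested of 7, summed to 2631 to 2822, 2197 to 2541 and 2147 to 2652, against 2745 to 3172, and the same 2 (Lyve1 and Kdr) were lower with each of episesamin and sesamolin. Of the 6, 3 lay above and 3 below 0 with episesamin (median -0.05) and 2 above and 4 below with sesamolin (median -0.26), and Pecam1 was at 0.30 and 0.26 without passing. Of the markers of lymphocytes and neutrophils, stellate cells, bile duct and red blood cells, 0 were called against lignan-free, and 1 of 2 tested of adipocytes and pancreas was higher with episesamin. All 8 Kupffer markers lay below 0 in each lignan diet. Their medians were -0.26, -0.39 and -0.70 with sesamin, episesamin and sesamolin, where those of all genes were -0.0095, -0.018 and -0.0095. The calls of Kupffer markers and of Lyve1 and Kdr fell in the diets in which Agxt and Aass were called, and their part in those differences was not tested.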

How the data were processed

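The authors deposited linear array intensity values, a single one for each probe set on each array. They ran from 0.0222 to 18018.4 without a scale shared by the arrays, and no source used here names the software. Each array holds biotin-labelled cRNA from the total RNA of a single rat, per the labels' protocols, so replicates are separate animals.

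Arrays were quantile normalized, so that equal ranks share a value, and log2 was computed after adding 5.85, the 20th percentile. The annotation gave a single symbol for 20832 of 31099 probe sets, several for 436 and none for 9831. Kept were those with a single symbol and above 17.8 (the 40th percentile) on 5 or more arrays, without 57 controls, and each gene was read from its brightest probe set, leaving 11576 genes. With limma 3.58.1 (R 4.3.3), 4 diet means were estimated from the 20 arrays together, with 16 residual and 2.59 prior degrees of freedom. The fit was run on simulated data with independent noise for each gene. Its pass mark for recovery concerned planted differences far larger than the called member differences, so it does not show how well those are recovered. Tests are two-sided, with Benjamini-Hochberg adjustment over all genes of a comparison, and a gene is called at an adjusted p below 0.05. The number of arrays limits the precision.

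Where most arrays of a group lay below the filter level, a fold is a bound, with each such array set at that level. Named are all 9 members, up to 3 called genes of each other list, its highest gene that did not pass, and 2 similar genes per member, loci without a gene name passed over. Members and lists were chosen with earlier results of these data known. Alternatives covered normalization, offset, filter, choice of probe set, form of the fit, array covariates, and arrays left out.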

Additional observations from a re-analysis of the deposited data

Results flagged for a closer look

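Sds in sesamin replicate 4 was 1224 in normalized intensity, where the other 4 sesamin rats had 54.9 to 244. The gap to the nearest rat was 0.838 of the whole range of the group, above the limit of 0.71 for 5 samples. It was 1 such rat in 36 sets of 5 (9 members in 4 diets). Chance gives about 1 set in 20 only where values are normally distributed. The gap was taken on linear intensities and not on the log2 scale of the tests, so the flag applies to the linear scale alone. Without that array the Sds difference between sesamin and lignan-free was -0.55 on the log2 scale, against 0.11 with it. The same array was also highest in its diet for Agxt (1807), Aass (2900.4) and Tdo2 (10128) and lowest for Hpd (7597), and the cause was not tested.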

How the results depend on the processing

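Each member difference was recomputed under 36 alternatives. Counts in this section are given without the share of all genes called in the same alternative. They describe how stable the calls were, and not whether the members differed from other genes. The 6 called member differences gave 216 values, of which 185 stayed past the threshold, 31 did not and 0 changed direction. The uncalled ones gave 1728 values, of which 15 passed. Counts of members called were 2 for episesamin and 2 for sesamolin against lignan-free, 1 for episesamin and 1 for sesamolin against sesamin, 2 in the F test, and 0 for sesamin against lignan-free. With arrays left unnormalized each of these counts was 0, and the median of all genes then shifted by -0.25 with episesamin and -0.22 with sesamolin on the log2 scale. Relative to that shift Agxt was 0.53 and 0.57 and Aass -0.56 and -0.40. Under median scaling, where that median was -0.13 and -0.10, the counts were 1 (Aass) for episesamin, 1 (Agxt) for sesamolin, 1 (Aass) in the F test and 0 for both comparisons with sesamin. Without the 6 dim arrays they were 1 (Agxt) for episesamin, 1 (Aass) for sesamolin, 1 (Aass) in the F test and 0 for episesamin against sesamin. A fit of only the groups compared gave 0 for both comparisons with sesamin. Sesamin against lignan-free gave 1 (Agxt) with an offset of 16, a filter at the 60th percentile, trended and robust eBayes, array weights, or without the arrays numbered 1. Sesamolin against lignan-free gave 1 (Agxt) with no filter, with mean log2 raw intensity as a covariate and without the arrays numbered 1. Sesamolin against sesamin gave 2 (Aass and Hal) with the 60th percentile filter, trended and robust eBayes, array weights and the actin ratio as a covariate. Leaving out 1 array gave 0 to 1 for sesamin, 2 to 2 for episesamin and 1 to 3 for sesamolin against lignan-free, 1 to 1 for episesamin and 0 to 2 for sesamolin against sesamin, 0 to 0 for sesamolin against episesamin and 2 to 3 in the F test. Other amino acid breakdown genes called, 8 with episesamin and 7 with sesamolin, ran over 4 to 9 in both on leaving out 1 array. They were 4 and 4 unnormalized, 4 with episesamin in a fit of only the groups compared, and with sesamolin 12 under the 60th percentile filter, 11 under trended and robust eBayes and 4 without the arrays numbered 1. The replicate number as a block gave 11 of them with sesamolin and 10 with episesamin, left the 6 member calls in place and added Hal to the F test (3 members). Of 30 same-numbered pairs of arrays, 10 correlated above 0.1 (range -0.059 to 0.25) and in 13 an array matched its own number best. The labels do not say that a number marks a shared litter, day or batch, so the main fit did not pair rats by number. For number 1 all 6 pairs were above 0.1 (0.13 to 0.25) and in 6 of 6 an array matched its own number best, a hint from the data and not the design. Of the called differences of other named genes, 508 of 612 values stayed past the threshold, and those of Asrgl1, Dmgdh and Gcat against lignan-free stayed in all alternatives run. For these genes no alternative was run against sesamin. Leaving out arrays numbered 1, and all alternatives for the other named genes, were added after seeing the data. So was a limit on judging direction: it was judged for the 16 of 54 member differences with an unadjusted p below 0.05 (0 sign changes in 576 values), and the other 38 were judged by their side of the threshold alone. Those 38 changed sign in 79 of 1368 values, as for Sds with sesamin without sesamin replicate 4 (-0.55 against 0.11). Other cases were Tat in sesamolin against episesamin without the dim arrays (-0.32 against 0.37) and Tat with sesamolin without the arrays numbered 1 (0.31 against -0.03). The signs printed above for these 38 are estimates only, and no direction is claimed for them. The cause of these changes was not tested.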
